A study of Mus musculus with 16 samples.

Results

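The chaperonins are barrel-shaped complexes that enclose unfolded proteins and release them folded at the cost of ATP. All 10 chaperonin genes named by the rule were measured: Hspd1 and Hspe1, which encode the mitochondrial pair, and Tcp1, Cct2, Cct3, Cct4, Cct5, Cct6a, Cct7 and Cct8, which encode the subunits of the cytosolic complex. They are 10 of the 19938 genes that have a probe of their own on the array. Each gene was represented by its probe with a single gene symbol, or by the probe with the highest mean where there were several. All 10 passed the filter on dim probes and are among the 16427 genes tested. The rule lists them by name and sets no threshold on their values.

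HSP60, the product of Hspd1, forms the chamber of the mitochondrial matrix, and HSP10, the product of Hspe1, is its lid. The cytosolic chaperonin, called CCT or TRiC, is built of stacked rings in which every subunit is a different gene product, and it folds actin, tubulin and a set of WD40-repeat proteins. Activated T cells enlarge, make more protein and mitochondria and prepare for division, processes in which both chaperonins take part.

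The arrays were made from B6 mouse T cells taken from spleen and lymph nodes and sorted as CD4+, high for CD62L and negative for CD25, which marks naive cells. The cells were wild type (WT) or carried a knock-out (KO) of DEC1, a transcriptional repressor encoded by Bhlhe40, and both genotypes were kept for 24 h with latex beads. The beads bore an antibody to CD3, part of the T cell receptor complex (anti-CD3), either alone or joined by an antibody to CD28, a costimulatory receptor (anti-CD28). The groups are written WT_CD3, WT_CD3CD28, KO_CD3 and KO_CD3CD28, with 4 arrays each, and no unstimulated cells are among them. How the DEC1 allele was made, the age of the mice and the number of animals behind an array are not given in the sources used here. Replicates are numbered 1 to 4 and the labels do not call them separate animals; the p-values therefore reflect only how these arrays scatter, some of which may be technical.

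Values are log2 signals, so a difference of 1 is a doubling, and the number of arrays limits their precision. Array medians were 6.64 to 6.97. Bhlhe40 was at 7.56 ± 0.42 (SD, n = 4) in WT_CD3 and 5.53 ± 0.32 in KO_CD3, and at 9.51 ± 0.71 and 5.89 ± 0.14 with anti-CD28. Under either stimulus every knockout array was below every wild-type array, though where its probe lies relative to the deletion is not given here. Of 12 T cell markers 11 were measured, and their mean stood at the 93.3rd to 96.6th percentile of probes on each array. The mean of the 11 measured B cell markers stood at the 32.3rd to 42.1st percentile and that of the 15 myeloid and dendritic markers at the 37.4th to 49th. For the 10 CD8 and NK markers it was the 42.6th to 46.9th. Single markers ranged widely: Cst3 stood at 77.9 to 88, Cd68 at 57.5 to 74, Cd8b1 at 75.4 to 87.2 and Klrd1 at 27.6 to 94.3. Ebf1 stood at 14.2 to 20.8 and Klrb1c at 7.7 to 12.3. Xist, expressed from the inactive X chromosome of females, was at 10.44 to 11.36 in replicate 1 of the WT groups and replicates 2 and 4 of the KO groups, while every other array gave 5.09 to 5.80. Within each genotype, a replicate number was thus high or low in Xist alike under both stimuli. The main fit does not pair arrays by replicate number.

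The promoter sequences of the mitochondrial pair are shown first because both genes start within one short stretch of chromosome 1. RefSeq (mouse assembly GRCm38.p6) places Hspe1 at chr1:55088148-55091317 and Hspd1 at chr1:55077833-55088243, transcribed in opposite directions. RefSeq gives Hspd1 transcript starts at 55088243 and 55087932, which lie 95 and 216 bases from the start of Hspe1. The 250 bases before the Hspe1 start, chr1:55087898-55088147 on the plus strand, hold a run of alternating heat shock units, TTC and GAA separated by a pair of bases, written in capitals.
Hspe1: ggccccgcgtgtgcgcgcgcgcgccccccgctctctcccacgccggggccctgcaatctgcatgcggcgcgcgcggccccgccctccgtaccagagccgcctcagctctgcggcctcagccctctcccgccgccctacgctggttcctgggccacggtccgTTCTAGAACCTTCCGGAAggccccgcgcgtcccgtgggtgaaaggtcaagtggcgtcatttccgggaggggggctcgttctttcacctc
The run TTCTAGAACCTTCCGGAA lies at chr1:55088059-55088076, from 89 to 72 bases before the Hspe1 start, and has 4 units. The same stretch lies between the 2 Hspd1 starts, so it also falls in the window of the Hspd1 start at 55087932. A run of 4 units in this order, with any bases between the units, occurs in the windows of 5 genes: Hspe1, Hspd1, Arpc2, Chordc1 and Fam149a. A triplet of units is the pair of units searched further on (GAANNTTC or TTCNNGAA) with 1 more unit in the same spacing; it is in 0.603% of all 32851 promoter windows of the same length and in 0.662% of genes. A match describes letters in a window and shows no binding.

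The windows of 4 cytosolic subunits are shown because these genes had the largest changes with anti-CD28, described further on. Their capitals mark CCAAT, or ATTGG where it is read on the other strand.
Cct7: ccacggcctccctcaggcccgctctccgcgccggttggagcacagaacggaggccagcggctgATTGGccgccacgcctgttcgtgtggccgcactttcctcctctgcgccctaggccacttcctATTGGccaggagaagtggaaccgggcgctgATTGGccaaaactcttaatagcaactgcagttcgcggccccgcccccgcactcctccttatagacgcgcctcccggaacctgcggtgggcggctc
Tcp1: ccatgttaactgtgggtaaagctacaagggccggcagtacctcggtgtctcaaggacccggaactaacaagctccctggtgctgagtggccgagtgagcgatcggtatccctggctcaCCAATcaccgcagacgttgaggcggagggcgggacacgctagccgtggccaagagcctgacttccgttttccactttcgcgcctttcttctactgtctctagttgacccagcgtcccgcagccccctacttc
Cct3: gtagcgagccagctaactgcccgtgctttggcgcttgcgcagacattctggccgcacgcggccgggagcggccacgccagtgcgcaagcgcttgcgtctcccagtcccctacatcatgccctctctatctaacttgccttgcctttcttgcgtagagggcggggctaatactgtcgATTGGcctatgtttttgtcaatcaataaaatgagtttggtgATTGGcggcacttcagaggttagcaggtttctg
Cct6a: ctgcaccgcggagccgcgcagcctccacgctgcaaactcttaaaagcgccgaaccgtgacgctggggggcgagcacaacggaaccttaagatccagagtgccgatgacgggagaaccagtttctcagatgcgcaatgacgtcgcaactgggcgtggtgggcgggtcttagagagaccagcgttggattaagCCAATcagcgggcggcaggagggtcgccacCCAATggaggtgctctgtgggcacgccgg
These are the 250 bases before each start on the plus strand of GRCm38.p6, at chr6:85451255-85451504, chr17:12916079-12916328, chr3:88296885-88297134 and chr5:129787106-129787355. Cct7 has 3 matches, at -187 to -183, -125 to -121 and -95 to -91 from its start. Cct3 and Cct6a have 2 each, and Tcp1 has 1. The windows extend 50 bases past the start, where none of these 4 genes had a further CCAAT match.

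Of the 9 chaperonin genes with a RefSeq window, all had a GC box (GGGCGG or CCGCCC), as did 38.2% of all 27025 genes with a window (35.7% of windows). CCAAT or ATTGG was in 5 of them, Hspd1, Tcp1, Cct3, Cct6a and Cct7, and in 41.1% of all genes (37.4% of windows). The pair of heat shock units (GAANNTTC or TTCNNGAA) was in Hspd1, Hspe1, Cct2, Cct5 and Cct6a, and in 17.0% of all genes (15.1% of windows). The E-box CACGTG, the letters that MYC and MAX and also DEC1 can bind, was in Hspd1 alone among the 9, at -80 to -75 from the start at 55088243, and in 8.09% of all genes (7.15% of windows). Cct4 has no entry in the promoter table.

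Addition of anti-CD28 raised 9 of the 10 chaperonin genes in wild-type cells, every one of them except Hspe1 (limma, Benjamini-Hochberg adjusted p under 0.05). Among all genes tested, 29.0% were called in this comparison, 2630 higher and 2140 lower. The median change of the 10 genes was 0.45, against -0.03 for all genes. In the same 9 genes the 4 WT_CD3CD28 arrays lay above all 4 WT_CD3 arrays, which was so for 16.2% of all genes. In knockout cells the same 9 genes rose, with a median of 0.67 over the 10 against -0.06 for all genes, where 38.0% of all genes were called, 20.4% higher and 17.6% lower. The same 9 genes did not overlap between KO_CD3 and KO_CD3CD28, against 18.7% of all genes.

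**Figure D1:**
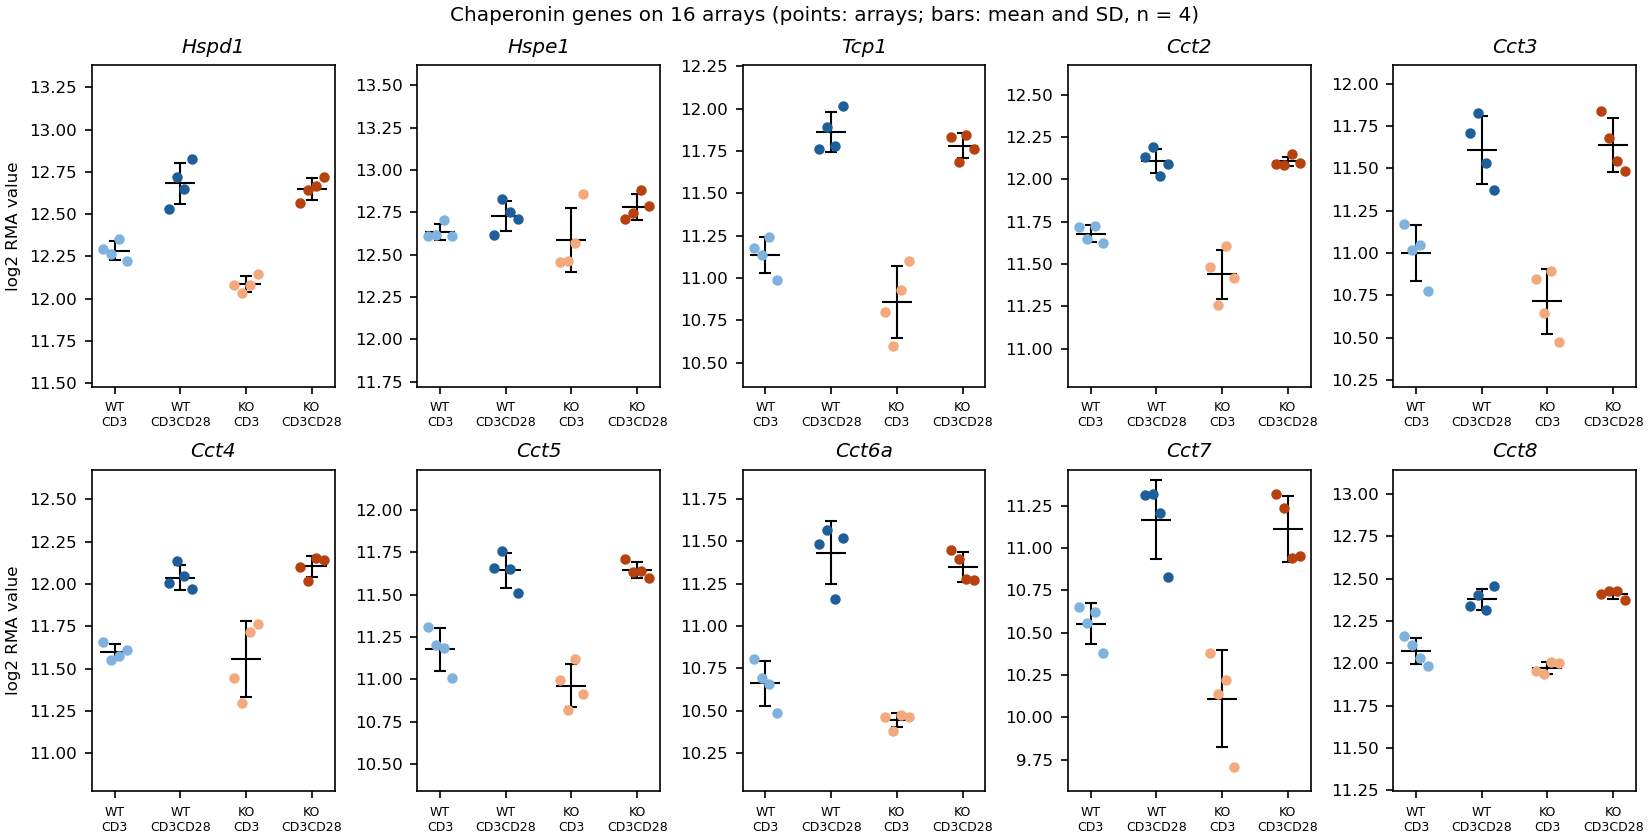
Log2 signal of each chaperonin gene on all 16 arrays by group, 1 point per array and a bar for the group mean. In every gene except Hspe1 the anti-CD3 plus anti-CD28 arrays of a genotype lie above its anti-CD3 arrays, and the lowest group mean of all 10 genes is KO_CD3.

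Hspd1, the chamber protein of mitochondria, rose in both genotypes. Its log2 signal was 12.29, 12.27, 12.36 and 12.23 in replicates 1 to 4 of WT_CD3 and 12.53, 12.72, 12.65 and 12.83 in WT_CD3CD28. It was 12.08, 12.03, 12.08 and 12.15 in KO_CD3 and 12.57, 12.64, 12.67 and 12.72 in KO_CD3CD28. The arrays with anti-CD28 were all above those without, and the KO_CD3 arrays were all below the WT_CD3 arrays. The change with anti-CD28 was 0.40 (SE 0.07, adjusted p = 0.00057) in wild type and 0.56 (SE 0.07, adjusted p = 1.32e-05) in knockout. A second probe of Hspd1 had 0.42 (SE 0.10, adjusted p = 0.00438) and 0.79 (adjusted p = 9.76e-06).

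Hspe1, the lid that closes the HSP60 chamber, did not pass the test in either genotype. Its log2 signal was 12.61, 12.62, 12.70 and 12.61 in WT_CD3 and 12.62, 12.83, 12.75 and 12.71 in WT_CD3CD28. In the knockout it was 12.45, 12.46, 12.57 and 12.86 with anti-CD3 and 12.71, 12.75, 12.88 and 12.79 with anti-CD28. The groups overlap in both genotypes, and in KO_CD3 replicate 4 stands well above the other arrays. The change was 0.09 (SE 0.09, 95% interval -0.10 to 0.28, adjusted p = 0.501) in wild type and 0.20 (95% interval 0.01 to 0.38, adjusted p = 0.0932) in knockout. Between like-numbered knockout arrays it was 0.25, 0.29, 0.31 and -0.07.

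The knockout value of Hspe1 depends on 1 array and on the scaling. Without KO_CD3 replicate 4 it was 0.29 (adjusted p = 0.00753), and with each array centred on its median 0.33 (adjusted p = 0.00596). Weighting arrays by quality gave 0.23 (adjusted p = 0.0258) and replicates 1 and 2 alone 0.27 (adjusted p = 0.0466). A second Hspe1 probe had 0.07 (adjusted p = 0.689) in wild type and 0.14 (adjusted p = 0.29) in knockout. Hspe1 was at the 98.9th to 99.6th percentile of probes on each array. Of the 58 tested genes in the band of highest mean signal, Hspe1 among them, 12.1% were called in each genotype, and the median size of their change was 0.09 in both. Of the 528 genes between 11 and 12, 49.6% were called in wild type and 65% in knockout, with median sizes of 0.28 and 0.42. The part of this signal range in the Hspe1 result was not tested. RefSeq names 5 pseudogenes after Hspd1 and 6 after Hspe1, so signal from near-identical copies cannot be told apart here and both values are uncertain. It names 1 each after Tcp1 and Cct3.

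All 8 cytosolic subunits rose with anti-CD28 in both genotypes, with a median change of 0.54 in wild type and 0.79 in knockout. The changes ran from 0.31 for Cct8 to 0.77 for Cct6a in wild type, and from 0.43 for Cct8 to 1.00 for Cct7 in knockout. In all 8 the change was positive between each of the 4 like-numbered pairs of arrays, in both genotypes. As the groups of these genes do not overlap, this had to be so and adds no evidence. The subunits occupy fixed places in the ring and each contributes its own part of the surface that binds substrates.

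Cct6a, the zeta subunit, had the largest change of the 10 genes in wild type. Its log2 signal was 10.81, 10.69, 10.66 and 10.49 in WT_CD3 and 11.49, 11.57, 11.16 and 11.52 in WT_CD3CD28. It was 10.46, 10.38, 10.48 and 10.46 in KO_CD3 and 11.45, 11.40, 11.28 and 11.27 in KO_CD3CD28. The spread in KO_CD3 was small, 0.04 (SD), and every array with anti-CD28 was above every array without. The change was 0.77 (SE 0.09, adjusted p = 9.21e-06), or 1.71-fold, in wild type and 0.90 (adjusted p = 9.14e-07) in knockout.

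Cct7, the eta subunit, had the largest change in knockout. Its log2 signal was 10.65, 10.56, 10.62 and 10.38 in WT_CD3, and 11.31, 11.32, 11.20 and 10.83 in WT_CD3CD28. In the knockout it was 10.38, 10.14, 10.22 and 9.71 with anti-CD3 and 11.32, 11.24, 10.94 and 10.95 with anti-CD28. Replicate 4 was the lowest array in 3 of the 4 groups, and the anti-CD28 arrays were nevertheless all above the others. The change was 0.62 (SE 0.14, adjusted p = 0.00304) in wild type and 1.00 (SE 0.14, adjusted p = 2.86e-05), or 2-fold, in knockout.

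Tcp1, the alpha subunit for which the complex was named, was at 11.18, 11.14, 11.24 and 10.99 in WT_CD3 and 11.76, 11.89, 11.78 and 12.02 in WT_CD3CD28. It was at 10.80, 10.60, 10.93 and 11.10 in KO_CD3 and 11.83, 11.69, 11.84 and 11.76 in KO_CD3CD28. KO_CD3 reached into the range of WT_CD3 only with replicate 4. The change with anti-CD28 was 0.73 (SE 0.10, adjusted p = 3.49e-05) in wild type and 0.92 (adjusted p = 1.57e-06) in knockout. Cct3, the gamma subunit, was at 11.17, 11.02, 11.05 and 10.78 in WT_CD3 and 11.71, 11.83, 11.53 and 11.37 in WT_CD3CD28. It was at 10.85, 10.65, 10.89 and 10.48 in KO_CD3 and 11.84, 11.68, 11.55 and 11.49 in KO_CD3CD28. Replicate 4 was the lowest array of Cct3 in all 4 groups. Its change was 0.61 (SE 0.12, adjusted p = 0.000998) in wild type and 0.92 (adjusted p = 1.28e-05) in knockout.

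Cct2, the beta subunit, was at 11.72, 11.65, 11.73 and 11.63 in WT_CD3 and 12.13, 12.19, 12.02 and 12.09 in WT_CD3CD28. It was at 11.48, 11.26, 11.61 and 11.42 in KO_CD3 and 12.09, 12.09, 12.15 and 12.10 in KO_CD3CD28. All KO_CD3 arrays were below all WT_CD3 arrays, and the anti-CD28 arrays of the genotypes interleaved. The change was 0.43 (SE 0.08, adjusted p = 0.0004) in wild type and 0.67 (adjusted p = 3.23e-06) in knockout. Cct4, the delta subunit, ranged over 11.55 to 11.66 in WT_CD3, 11.97 to 12.13 in WT_CD3CD28, 11.30 to 11.77 in KO_CD3 and 12.02 to 12.15 in KO_CD3CD28. Its change was 0.44 (adjusted p = 0.00164) in wild type and 0.55 (adjusted p = 0.000177) in knockout.

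Cct5, the epsilon subunit, ranged over 11.01 to 11.31 in WT_CD3, 11.51 to 11.76 in WT_CD3CD28, 10.82 to 11.12 in KO_CD3 and 11.60 to 11.71 in KO_CD3CD28. Its change was 0.47 (adjusted p = 0.000465) in wild type and 0.68 (adjusted p = 7.45e-06) in knockout. Cct8, the theta subunit, ranged over 11.98 to 12.16 in WT_CD3, 12.32 to 12.46 in WT_CD3CD28, 11.93 to 12.01 in KO_CD3 and 12.37 to 12.43 in KO_CD3CD28. It had the smallest change of the subunits in both genotypes, 0.31 (SE 0.07, adjusted p = 0.00195) and 0.43 (adjusted p = 6.01e-05).

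In both genotypes the 4 largest changes among the subunits were those of Cct7, Tcp1, Cct3 and Cct6a, and the smallest was that of Cct8. These 4 are the subunits in which a CCAAT match was found, and Cct2, Cct5 and Cct8 have none in their windows. Cct4 has no window and could not be classed. This was noticed after the values were seen and carries no test. Hspd1 also has a CCAAT match, just past its start at 55088243, and its change was smaller than theirs. Among all genes tested with a window, 18.9% of the 5341 with CCAAT were called higher in wild type and 15.2% of the 7576 without. In knockout the shares were 23.5% and 19.9%.

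Some markers of B cells and myeloid cells fell with anti-CD28 while the chaperonins rose. Of 9 B cell markers tested, 4 fell in wild type and 6 in knockout, and none rose, while 2140 of the 16427 genes tested (wild type) and 17.6% (knockout) fell. The summed log2 level of 11 B cell markers was 69.6 to 71.0 in WT_CD3, 64.9 to 66.6 in WT_CD3CD28, 68.0 to 71.3 in KO_CD3 and 65.0 to 66.6 in KO_CD3CD28. Of 14 myeloid and dendritic markers, 6 fell in wild type and 8 in knockout; their summed level was 98.2 to 99.4, 93.0 to 93.7, 97.5 to 104 and 93.2 to 95.3 in the same order. The 10 CD8 and NK markers summed to 64.9 to 66.5, 64.1 to 66.1, 66.5 to 68.9 and 64.0 to 67.5, and of the 6 tested 4 rose and 2 fell in wild type. Of 11 T cell markers, 6 fell and 1 rose in wild type and 5 fell and 1 rose in knockout. The part of these markers in the chaperonin results was not tested. In bulk samples, fewer cells of a type and less RNA per cell cannot be told apart.

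Under anti-CD3 alone the knockout had lower chaperonin values than the wild type, and no gene of the 10 passed the test. All 10 differences, knockout minus wild type, were negative, from -0.44 for Cct7 to -0.04 for Cct4, with a median of -0.22 against 0.03 for all genes. Of all genes, 44.5% had a negative difference. Among lists described further on, so had all 17 mitochondrial import genes and all 9 prefoldin and phosducin-like genes. Of 13 actin, tubulin and cofactor genes, 5 had a positive one. Cct4 changed sign when the arrays were quantile normalized again (0.02), and both Cct4 (0.15) and Hspe1 (0.06) did with replicates 3 and 4 alone. Cct4 also turned without 1 array, ranging from -0.11 to 0.04. An unadjusted p under 0.05 was found for 7 of the 10 genes and for 24.3% of all genes. In Hspd1, Cct2 and Cct6a the KO_CD3 arrays lay wholly below the WT_CD3 arrays, as they did in 6.63% of all genes.

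The largest of these differences was that of Cct7, -0.44 (SE 0.14, 95% interval -0.74 to -0.14, adjusted p = 0.102). Next came Cct3 at -0.29 (adjusted p = 0.168), Tcp1 at -0.28 (adjusted p = 0.126) and Cct2 at -0.24 (adjusted p = 0.102). Cct6a was at -0.22, Cct5 at -0.21 and Hspd1 at -0.20, with adjusted p of 0.175, 0.152 and 0.134. Cct8 was at -0.10 (adjusted p = 0.348) and Hspe1 at -0.05 (adjusted p = 0.74). The second Hspd1 probe had -0.29 (adjusted p = 0.121).

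With the replicate number as a block, 2 of the 10 genes passed the test, both lower in knockout: Cct7 (adjusted p = 0.0113) and Cct3 (adjusted p = 0.0401). The differences were the same and their SE fell to 0.09 and 0.08. Cct2 was then at adjusted p = 0.0547. The block sets like-numbered arrays of the genotypes together, and their Xist levels differ at replicates 1, 2 and 4. For replicate 1 Xist was at 10.95 in WT_CD3 and 5.34 in KO_CD3. For replicate 2 it was 5.14 and 10.44, for replicate 3 5.67 and 5.42, and for replicate 4 5.09 and 11.10. The part of Xist in the block fit was not tested. The block fit called 1954 of all genes tested (11.9%), 1077 of them lower in knockout, which is 6.56% of all. The fit without the block called 169 (1.03%), 123 of them lower, which is 0.749% of all. Hspd1 passed with each array centred on its median (-0.29, adjusted p = 0.0444), and Tcp1 with replicates 1 and 2 alone (-0.46, adjusted p = 0.0292).

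The count of 169 genes itself moved when 1 array was left out, while none of the 10 chaperonin genes was called in any such fit. Without WT_CD3 replicates 1, 2 or 3 it was 26, 60 or 7. Without WT_CD3CD28 replicates 1 to 4 it was 89, 85, 105 or 296. Without KO_CD3 replicates 1, 2 or 3 it was 37, 11 or 452, and without KO_CD3CD28 replicates 2, 3 or 4 it was 81, 91 or 101. Leaving out any other array kept it between 123 and 177.

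Each array can be summarised by the mean of the 10 genes after each gene is centred on its mean over all arrays. This mean was -0.30 to -0.11 on the WT_CD3 arrays and -0.51 to -0.31 on the KO_CD3 arrays, which do not overlap. It was 0.24 to 0.40 in WT_CD3CD28 and 0.25 to 0.33 in KO_CD3CD28, ranges that overlap. KO_CD3 replicate 2 was the lowest array of its group for 7 of the 10 genes, and WT_CD3 replicate 4 for 8. KO_CD3 replicate 4, in contrast, was the highest for 4 genes and the lowest for 2, Cct3 and Cct7. Array medians moved with the groups too: they were 6.80 to 6.85 in WT_CD3, 6.87 to 6.97 in KO_CD3, 6.64 to 6.81 in WT_CD3CD28 and 6.73 to 6.81 in KO_CD3CD28. Centring each array on its median made the median of all genes 0.06 and 0.07 for the CD28 effects and -0.06 for the genotype under anti-CD3.

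**Figure D2:**
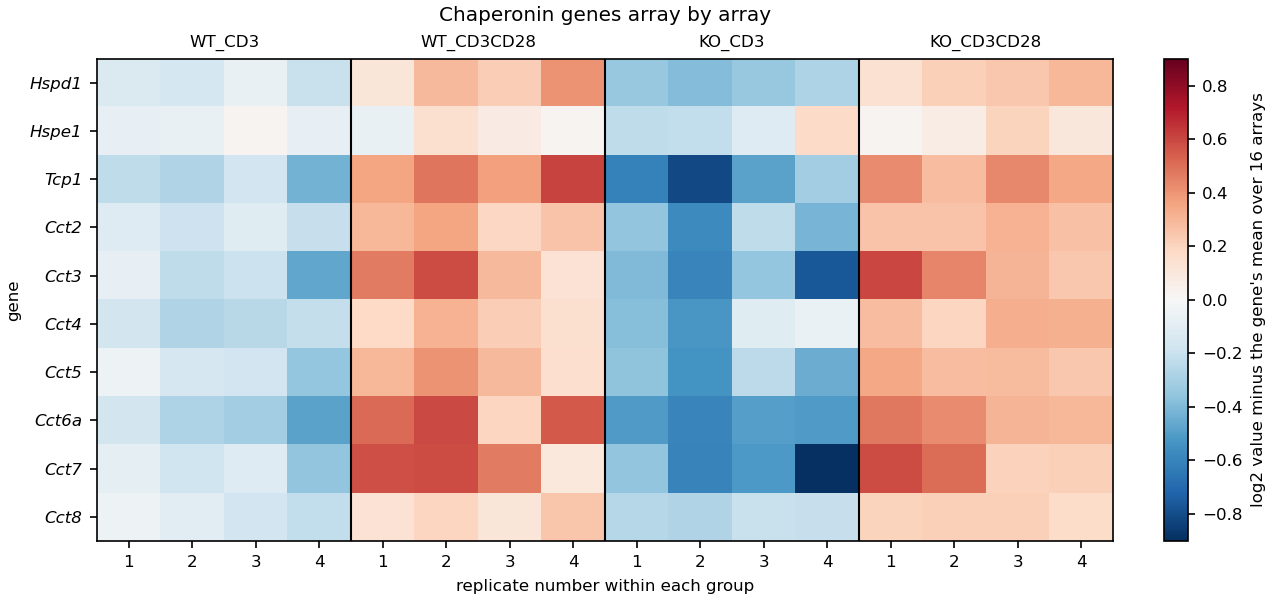
Log2 signal of each chaperonin gene on each of the 16 arrays, as the difference from that gene's mean over all arrays; columns are arrays by group and replicate, rows are genes. The arrays with anti-CD28 hold the highest values, apart from Hspe1, which is high on KO_CD3 replicate 4. The lowest value of each gene is on a KO_CD3 array, though KO_CD3 and WT_CD3 arrays overlap in several genes, among them Cct4, Tcp1 and Cct8.

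With anti-CD28 added, no chaperonin gene differed between the genotypes by the test. The differences ran from -0.09 for Cct6a to 0.07 for Cct4, with 5 positive and 5 negative and adjusted p of 0.999 for all 10. None had an unadjusted p under 0.05, against 3.32% of all genes. By the adjusted p, 1 gene, or 0.00609% of all, was called here, and that was Bhlhe40. The groups of none of the 10 genes stood apart, against 2.75% of all genes. For Cct7 the 95% interval was -0.36 to 0.24, and for Cct4 it was -0.13 to 0.26. A p above the threshold does not show that the genotypes were alike.

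**Figure D3:**
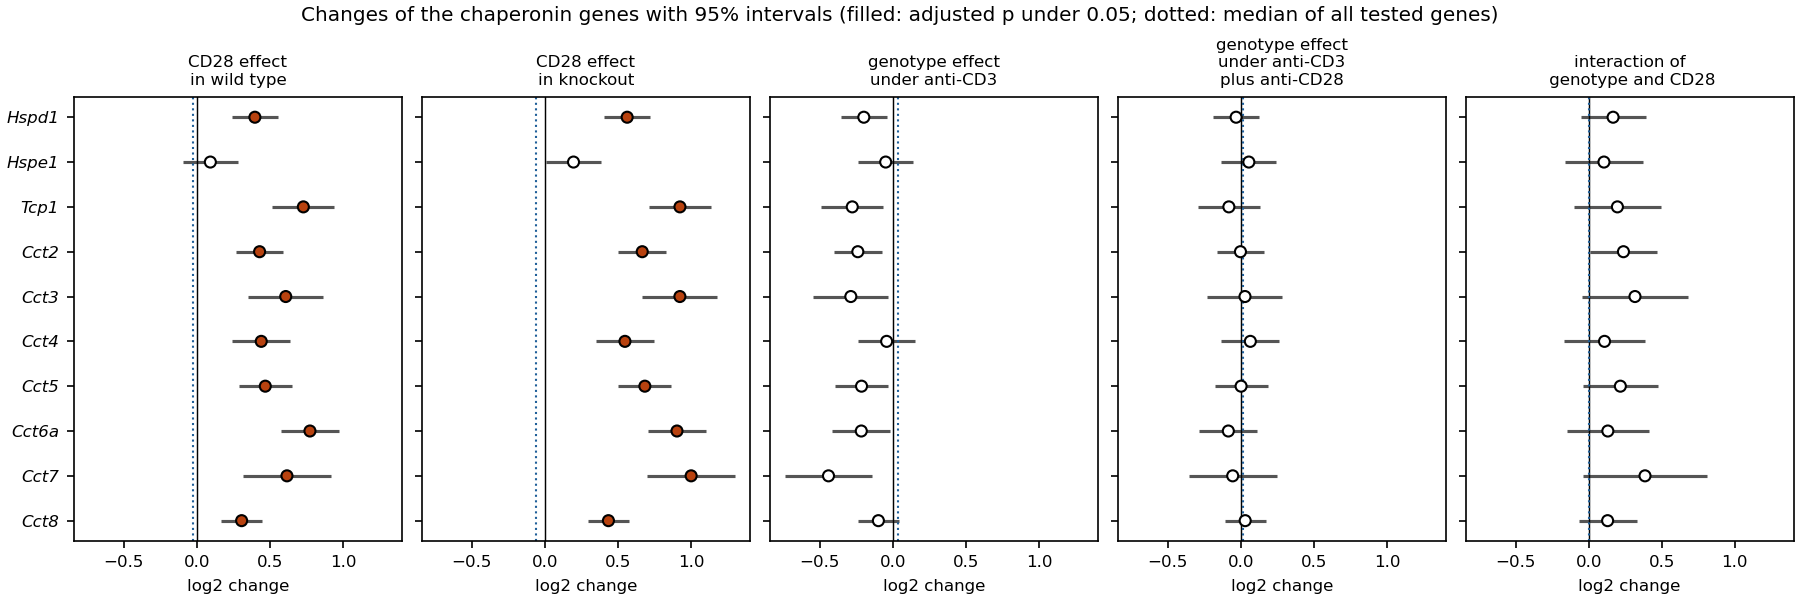
Log2 differences of each chaperonin gene in the comparisons, points with 95% confidence intervals from limma, filled where the adjusted p is under 0.05, with a dotted line for the median of all genes. The CD28 effects of all genes but Hspe1 are filled in both genotypes, and the genotype differences under anti-CD3 lie below 0, with 3 of the 10 intervals including 0.

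The change with anti-CD28 was larger in knockout than in wild type for all 10 genes, by 0.10 for Hspe1 to 0.39 for Cct7, and the test of this difference, the interaction of genotype and CD28, called none of them. The adjusted p was 0.905 to 0.929 for the 10 genes. The difference was positive for 50.3% of all genes. Among lists described further on, it was positive for all 17 mitochondrial import genes and all 9 prefoldin and phosducin-like genes. It was also positive for 10 of 13 actin, tubulin and cofactor genes, so the shared sign is not particular to the chaperonins. The unadjusted p was under 0.05 for 1 of the 10, Cct2 (0.24, SE 0.11), and for 5.28% of all genes. With limma's adjusted p 0 genes of the whole array were called, and 867 had an unadjusted p under 0.05. The interaction shares all 4 groups with the comparisons above, so its sign is no separate evidence. For Cct4 it was -0.01 with replicates 3 and 4 alone.

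In every chaperonin gene the group means stood in the same order at the low end, KO_CD3 lowest and WT_CD3 next. At the high end WT_CD3CD28 was highest in 5 genes and KO_CD3CD28 in the other 5. In the main fit the neighbours KO_CD3 and WT_CD3, and the neighbours WT_CD3CD28 and KO_CD3CD28, did not differ by the test in any of the 10. Under other settings some genes differed between KO_CD3 and WT_CD3. These were Cct7 and Cct3 with the replicate block, Hspd1 with each array centred on its median, and Tcp1 with replicates 1 and 2 alone. The step from anti-CD3 to anti-CD3 plus anti-CD28 passed the test within each genotype in all but Hspe1.

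The cytosolic subunits varied together over the 16 arrays, as a description and largely through the group differences they share. Pearson's r of the 28 pairs of subunits was 0.75 to 0.98 with a median of 0.94, highest for Cct3 and Cct5. For Hspd1 and Hspe1, which share a promoter stretch, r was 0.67, and for Hspe1 and Cct7 it was 0.35. After the group means were subtracted, r for the 28 pairs was -0.41 to 0.90 with a median of 0.44. Cct3 and Cct7 had 0.90, Hspd1 and Hspe1 0.52, and Hspe1 and Cct7 -0.60. All these points share the arrays and their scaling.

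Among all other genes tested, the 5 whose signal over the 16 arrays was most like the mean of the chaperonins were Ppid, Mrpl3, Ndufab1, Nudcd1 and Suclg2. Pearson's r with that mean was 0.99 or above for each, and 0.74 to 0.95 in the deviations from group means. Ppid encodes a cyclophilin, Mrpl3 a mitochondrial ribosomal protein, Ndufab1 the mitochondrial acyl carrier protein, and Suclg2 a subunit of succinyl-CoA synthetase. Ppid had a change with anti-CD28 of 1.00 in wild type and 1.29 in knockout, and Nudcd1 of 1.17 and 1.63. Under anti-CD3 the knockout had less Nudcd1 (-0.49, adjusted p = 0.0351) and Suclg2 (-0.40, adjusted p = 0.0447), beside 0.749% of all genes called lower. Ppid was at -0.29 (adjusted p = 0.0909), Mrpl3 at -0.28 (adjusted p = 0.115) and Ndufab1 at -0.345 (adjusted p = 0.0666). These genes were picked for following the chaperonin mean, which is lowest in KO_CD3, so their differences are no separate evidence.

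The counts of the following gene lists stand beside all 16427 genes tested, of which 2630 were called higher and 2140 lower in wild type, and 20.4% higher and 17.6% lower in knockout. As given above, the share called differs between bands of signal, and the lists were not matched to all genes by signal. Prefoldin and phosducin-like proteins deliver or release substrates of CCT. Of 9 prefoldin and phosducin-like genes tested, 2 rose and 1 fell with anti-CD28 in wild type, and 7 rose and none fell in knockout. Their median changes were 0.25 and 0.40. Pfdn4, a prefoldin subunit, rose by 0.99 (SE 0.14) in wild type and 1.18 in knockout. Pfdn1, another subunit, had 0.28 (adjusted p = 0.17) in wild type and rose by 0.97 (SE 0.14, adjusted p = 4.39e-05) in knockout. Pfdn6 had 0.32 (adjusted p = 0.0848) and rose by 0.66 in knockout. Without WT_CD3CD28 replicate 4, 5 of the 9 were called in wild type, with array weights 6 and with replicates 1 and 2 alone 7. Replicates 3 and 4 alone called 2 in knockout. Pdcl2 was too dim to test. Of the proteins related to CCT that assemble the BBSome of cilia, 3 were tested: Bbs12 rose by 0.87 and 1.34, Mkks had 0.00 and -0.12, and Bbs10 did not pass in either. Cct6b was too dim.

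The measured substrates of CCT, counted here with tubulin cofactors that are not its substrates, moved in both directions. Of the 17 actin, tubulin and cofactor genes listed, 4 have no probe with a single symbol: Actg1, Tuba1b, Tuba1c and Tubb4b. Of 13 actin, tubulin and tubulin cofactor genes, 4 rose and 3 fell in wild type and 5 rose and 2 fell in knockout. Tubg1, gamma-tubulin of the centrosome, rose by 1.15 (SE 0.14) and 1.5, and Tubb5, a beta-tubulin, by 0.50 (adjusted p = 0.0475) and 1.11. Tubb2b fell by 0.96 in wild type, and Tubb2a by 0.77 in wild type and by 0.78 in knockout. The 7 genes called in wild type became 3 without WT_CD3 replicate 4, 4 without either WT_CD3CD28 replicate 1 or 2, and 3 with replicates 3 and 4 alone. Of 10 other proteins folded by CCT, 2 rose in wild type and 3 in knockout, shares near those of all genes in either genotype. With array weights 5 were called in wild type, and with replicates 1 and 2 alone 5 in knockout. Plk1, a mitotic kinase, rose by 2.30 (SE 0.17) and 2.37, and Cdc20, an activator of the anaphase-promoting complex, by 1.46 and 1.18. Hdac3 had 0.20 (adjusted p = 0.347) and rose by 0.43 (adjusted p = 0.0254) in knockout.

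Of 16 genes of the mitochondrial HSP70 system and proteases, 6 rose in wild type and 10 in knockout, with medians of 0.26 and 0.55, and none fell; the other 10 in wild type and 6 in knockout did not pass. Hspa9, the mitochondrial HSP70 that hands proteins to HSP60, rose by 0.57 (SE 0.09) and 0.82, Trap1, the mitochondrial HSP90, by 0.61 and 0.76, and Oma1, a protease of the inner membrane, by 0.50 and 0.77. In wild type 11 were called with each array centred on its median, with array weights or with replicates 1 and 2 alone, and 3 with replicates 3 and 4 alone. Of 17 genes of mitochondrial protein import, 9 rose in wild type and 16 in knockout, with medians of 0.46 and 0.66. In wild type 16 were called with array weights or with replicates 1 and 2 alone, and 5 with replicates 3 and 4 alone, which called 9 in knockout. Timm8a1 and Timm9, small chaperones of the space between the membranes, rose by 0.79 and 0.74 in wild type and by 1.27 and 1.19 in knockout. Tomm70a, a receptor of the outer membrane, rose by 0.65 and 0.79.

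Of 24 genes of the cytosolic HSP70 and HSP90 machinery, 13 rose in each genotype, 11 did not pass and none fell, with medians of 0.27 and 0.41. With replicates 3 and 4 alone 8 were called in wild type, 1 of them lower. Stip1, which joins HSP70 to HSP90, rose by 0.73 (SE 0.10) and 1.01, Hspa14 by 0.53 and 0.86, and Hspa4 by 0.50 and 0.67. Of 14 chaperones of the endoplasmic reticulum, 10 rose in wild type and 12 in knockout, with medians of 0.31 and 0.47. In wild type 6 of the 14 were called with the arrays quantile normalized again, and 1 with replicates 3 and 4 alone, which called 5 in knockout. P4hb, a protein disulfide isomerase, rose by 0.37 (adjusted p = 0.0196) and 0.70, Creld2 by 0.63 and 0.81, and Sdf2l1 by 0.42 and 0.73.

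**Figure D4:**
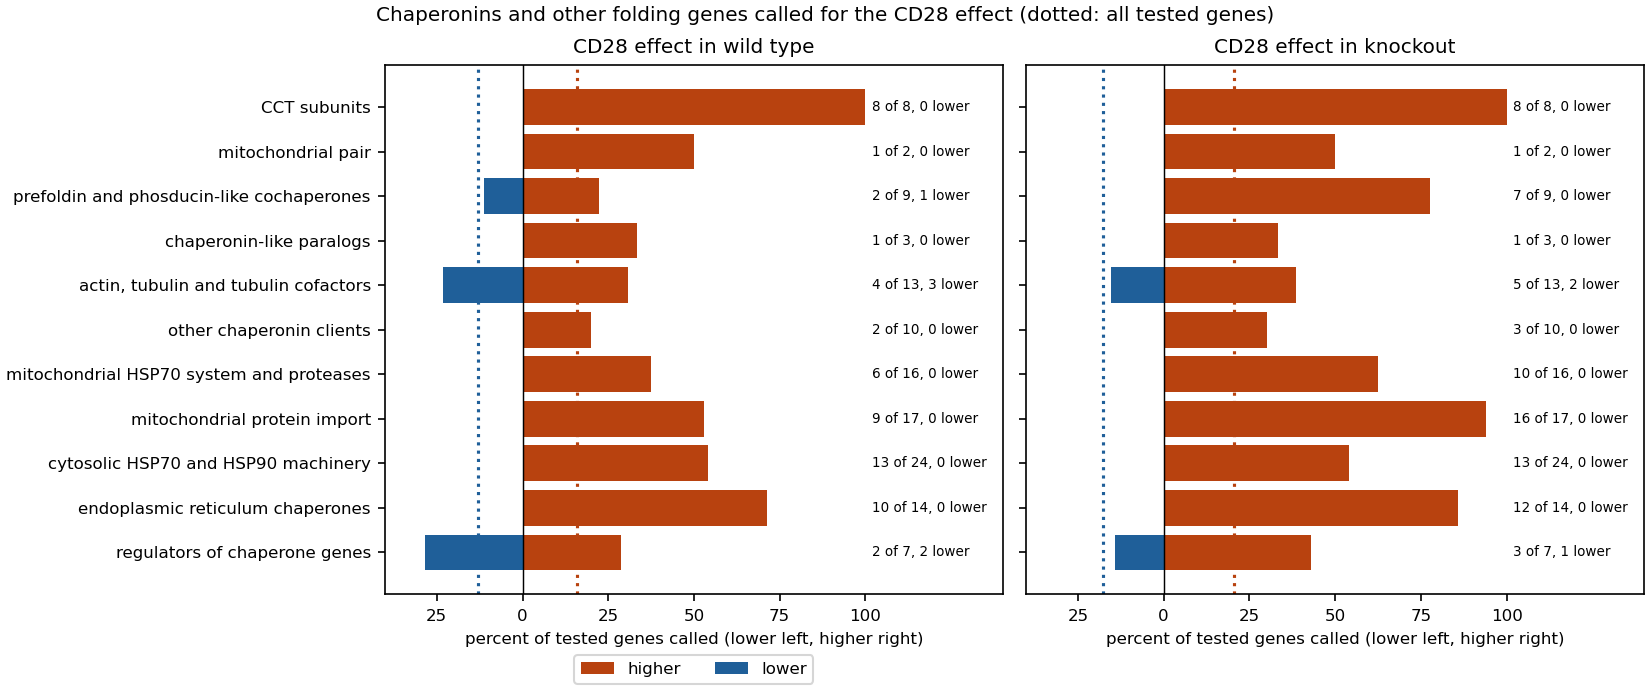
Percent of the tested genes of each list called higher (right of 0) or lower (left of 0) with anti-CD28, in wild type and in knockout, with the counts beside the bars and dotted lines for the percent of all genes called. All 8 CCT subunits were called higher in both genotypes, and the tubulin and regulator lists have genes called in both directions.

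Of 7 regulators of chaperone genes tested, 2 rose and 2 fell in wild type and 3 rose and 1 fell in knockout. Myc, a transcription factor of growth, rose by 0.62 (SE 0.13, adjusted p = 0.00146) in wild type and 1.10 (adjusted p = 3.83e-06) in knockout. Hsf2, a heat shock factor, rose by 0.65 and 0.84, and Ddit3, a factor of the stress response, fell by 0.45 and by 0.39. Max, the partner of MYC, fell by 0.30 in wild type (adjusted p = 0.0399) and had 0.11 (adjusted p = 0.404) in knockout. Atf4 had 0.18 (adjusted p = 0.389) and rose by 0.38 (adjusted p = 0.0431) in knockout. Atf5, linked to the mitochondrial stress response, had 0.07 and -0.05, and Cebpb had -0.12 and 0.15; neither passed in either genotype. Hsf1 has no probe with a single symbol.

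Under anti-CD3, 2 genes of these lists were lower in knockout, Myc (-0.60, SE 0.13) and Tubg1 (-0.63, SE 0.14), each with adjusted p = 0.0421, while 123 of all genes (0.749%) were called lower. Neither list had a call with only the arrays compared, with the Xist level as a covariate or with replicates 3 and 4 alone, and the regulators had none with the arrays quantile normalized again. Array weights called 2 regulators and 3 tubulin genes. Leaving out 1 array ended the call of the regulators list, Myc, without WT_CD3 replicates 1, 2 or 3, WT_CD3CD28 replicates 1, 2 or 3, KO_CD3 replicates 1, 2 or 4, or KO_CD3CD28 replicate 4, when 0 were called. The tubulin list likewise had 0 without WT_CD3 replicates 1 to 3, WT_CD3CD28 replicates 1 to 3, or KO_CD3 replicates 1, 2 or 4, 3 without WT_CD3CD28 replicate 4 and 2 without KO_CD3 replicate 3. Without WT_CD3CD28 replicate 4 the regulators list had 2. With the replicate block, 5 genes each of the tubulin and mitochondrial HSP70 lists and 4 each of the import, cytosolic and endoplasmic reticulum lists were called, with 2 regulators and 1 prefoldin gene, all of them lower, beside 6.56% of all genes.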

How the data were processed

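The authors deposited log2 signals of 16 Affymetrix arrays. Per the submitters' processing notes the tool was RMA, a method of background correction, quantile normalization and summary by probe set. Its version and the array design's build are not given in the sources used here. This table holds 35556 probes with 0 missing values. The supplied probe table gives 1 symbol for 21789 probes and several for 1621, and does not list 12146. Of these, 21698 matched RefSeq (GRCm38.p6) gene IDs, which changed 0 symbols.

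Probes were kept if, on 4 or more arrays, they exceeded the 25th percentile of that array, and the highest mean stood for a gene. Group means were fitted over 16 arrays with limma 3.58.1 (R 4.3.3; 12 residual and 4.92 prior degrees of freedom), for 5 comparisons, with Benjamini-Hochberg adjustment over 16427 genes and a threshold of 0.05; the fit was tested on simulated data. Like-numbered arrays deviated together from their group means in every pair (correlations 0.157 to 0.586), so a replicate block was also fitted. Named genes are the 10 chaperonins, the 3 of each list with the smallest p in the knockout CD28 effect, some of the 3 with the smallest p in the genotype effect under anti-CD3, members of short lists, all regulators, and the 5 genes most like the chaperonin mean. Alternatives covered scaling, the filter, the probe, the variance model, array weights, Xist, the replicate sets and each array left out. Members and lists were chosen with earlier results of these data known. Promoter windows are RefSeq's, 250 bases before to 50 after a start; figures used Python 3.11.15 and matplotlib 3.10.9.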

Additional observations from a re-analysis of the deposited data

Results flagged for a closer look

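Of 40 groups of 4 arrays (10 genes, 4 groups), 2 held an array far from the other 3 (gap over range above Dixon's 95% critical value); chance gives about 1 in 20 groups. Hspe1 was at 12.7045 in WT_CD3 replicate 3, against 12.61 to 12.62 on the others, a gap of 0.896 of the range. Cct6a was at 10.3819 in KO_CD3 replicate 2, against 10.46 to 10.48, a gap of 0.837 of the range. Without these arrays Hspe1 still did not pass the test for anti-CD28 in wild type, and Cct6a still passed it in knockout.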

How the results depend on the processing

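For the CD28 effects no chaperonin gene changed direction under any setting tried. The count of chaperonins called was 9 in all leave-one-out fits in wild type and 9 to 10 in knockout. In wild type Cct8 missed the threshold with replicates 1 and 2 alone (0.23, adjusted p = 0.0666), and Cct2 (0.38, adjusted p = 0.0587) and Cct7 (0.52, adjusted p = 0.0962) with replicates 3 and 4 alone; these fits use fewer arrays. Over all genes, replicates 3 and 4 alone called 2650 (wild type) and 2896 (knockout), and leaving out 1 array called 3947 to 5053 and 5171 to 6541. For the genotype under anti-CD3, the count of chaperonins called was 1 with median centring, 2 with the replicate block and 1 with replicates 1 and 2 alone, and otherwise 0. The count of genes was 261 with median centring, 597 with array weights, 5 with only the arrays compared, 1954 with the replicate block, 1388 with replicates 1 and 2, 0 with replicates 3 and 4, 49 with Xist, and 7 to 452 leaving out 1 array. Replicates 1 and 2 alone called 2 genes for the genotype with anti-CD28 and 80 for the interaction. The causes were not tested. Under anti-CD3 Cct4 was 0.0212 (quantile) and 0.1501, and Hspe1 0.0569, with replicates 3 and 4; Cct4 ranged from -0.1127 to 0.0433 leaving out 1 array. With anti-CD28, where no gene was called, signs turned for Cct3 -0.0168, Cct5 -0.0436 and Cct8 -0.0155 (median centring), Cct5 -0.0153 and Cct8 -0.0027 (quantile), Hspd1 0.0244 (mean of probes), Cct3 -0.0236 and Cct5 -0.0427 (array weights), Cct3 -0.0074, Cct4 -0.011 and Cct5 -0.0368 (replicates 1 and 2), Cct2 0.0673 (replicates 3 and 4) and Cct2 0.0074 (Xist). Leaving out 1 array ranged over -0.0323 to 0.0252 for Cct2, -0.0819 to 0.0163 for Hspd1, -0.0513 to 0.1009 for Cct3, -0.0437 to 0.0409 for Cct5 and -0.1684 to 0.0019 for Cct7. The interaction of Cct4 was -0.0084 with replicates 3 and 4. The replicate block changed no other chaperonin call. Genes in the brightest band of signal had the smallest median change, and the effect of the signal range was not tested.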
